A study of Mus musculus with 2 samples.

Results

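Glul, Glud1, Got1, Got2, Gpt, Gpt2 and Oat encode the enzymes that make glutamine, release ammonia from glutamate, or move an amino group to or from glutamate. These 7 genes were chosen by name, and all probes whose RefSeq accession belongs to 1 of them were read, which gave 8 of the 39429 probes on the array and 7 of the 20656 genes that could be named. RNA was collected from untreated bone marrow-derived macrophages (BMDMs) and from BMDMs given the Th2 cytokine IL-4 for 18 h. The title of the untreated sample also gives 18 h. BMDMs are mouse bone marrow cells grown into macrophages with M-CSF. Each condition had 1 single-colour Cy3 array, and both arrays lay on 1 slide, so no difference has a replicate check and no p-value is given. The labels give male mice, and the methods describe 8-week-old Crif1 f/f donors, which carry a floxed Crif1 gene, for both conditions. The methods do not state the IL-4 concentration used for the arrays, nor whether marrow from several mice was pooled.

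Glutamine and glutamate connect amino acid and energy metabolism. Glutamine synthetase, the product of Glul, joins ammonia to glutamate, while glutamate dehydrogenase, the product of Glud1, turns glutamate into α-ketoglutarate in mitochondria. The aminotransferases of Got1 and Got2 pass the amino group of glutamate to oxaloacetate, and those of Gpt and Gpt2 pass it to pyruvate. The enzyme of Oat moves an amino group from ornithine to α-ketoglutarate. All of them but glutamine synthetase thus interconvert α-ketoglutarate and glutamate. In macrophages, α-ketoglutarate made from glutamine and glutamine synthetase itself have both been linked to the M2 state that IL-4 drives.

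Promoter sequences are shown for Gpt2 and Oat, the members with the highest differences, so that the bases around their start sites can be read beside their values. They come from RefSeq on build GRCm38.p6, run from 250 bases before to 50 bases after the start, and are written 5′ to 3′ on the strand of the gene. The Gpt2 window is chr8:85492326-85492625 on the plus strand, and the Oat window is chr7:132576349-132576648 on the minus strand. Capitals mark the GC box GGGCGG and the CCAAT box, each searched on both strands, and in Oat the 2 GC boxes lie end to end.
Gpt2: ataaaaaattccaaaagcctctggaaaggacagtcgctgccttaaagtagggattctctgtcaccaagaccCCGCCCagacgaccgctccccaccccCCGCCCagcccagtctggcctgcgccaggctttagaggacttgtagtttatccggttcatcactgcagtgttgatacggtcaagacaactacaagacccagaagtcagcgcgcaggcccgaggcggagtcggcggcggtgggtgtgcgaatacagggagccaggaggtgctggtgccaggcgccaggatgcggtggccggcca
Oat: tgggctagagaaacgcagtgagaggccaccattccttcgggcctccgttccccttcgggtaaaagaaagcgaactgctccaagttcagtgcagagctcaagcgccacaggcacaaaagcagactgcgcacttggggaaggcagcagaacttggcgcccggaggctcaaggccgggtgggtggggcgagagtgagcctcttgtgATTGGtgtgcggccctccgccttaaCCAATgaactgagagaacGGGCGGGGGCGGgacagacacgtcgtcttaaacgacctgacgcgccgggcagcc
The GC box was found in the windows of Glul, Glud1, Gpt2 and Oat, and in 35.7% of all 32851 windows in the table. The CCAAT box was found in those of Glul, Got1 and Oat, and in 37.4% of all windows. A window was matched for 6 of the 7 members, so either Got2 or Gpt, named for neither box, was not searched. TTC and GAA with any 4 bases between, the spacing that STAT6 prefers, was in none of the 6 member windows searched. It was in 6.95% of all windows. These matches are only a description of the letters in these windows.

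Relative to the 75th percentile of each array, the signals of all 7 transcripts were similar in untreated and IL-4-treated BMDMs, with 1 array each. With this scaling, none of the 7 was at least 2-fold or at least 1.5-fold higher or lower after IL-4. Other scalings moved the small differences, as given below. Of the 19743 genes that cleared the background flag on 1 array or both, 2.86% passed 2-fold upward, 4.47% passed it downward, and the shares past 1.5-fold were 6.11% upward and 11.0% downward. All 7 members were bright on both arrays, and of the 17242 genes bright on both, 2.11% passed 2-fold upward and 1.57% downward, with 4.68% and 5.60% past 1.5-fold, so few calls would be found among 7 genes at either background. The log2 difference, IL-4 minus untreated throughout, lay between -0.10 (Got1) and 0.29 (Gpt2), with a median of -0.01 over the members, beside a median of -0.01 over the 17242 genes measured on both arrays. The middle 50% of those genes lay between -0.19 and 0.14, and 52.1% of them fell within the range of the members. Gpt2 alone lay above the 75th percentile.

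The values are background-subtracted intensities in arbitrary units, and differences were taken after the log2 value of each array was lowered by its own 75th percentile, which was 9.84 in untreated and 9.94 in IL-4-treated BMDMs. Every member probe was printed in 1 spot, was well above background on both arrays by the flag of the scanner software, and was neither saturated nor marked as an outlier. Its median pixel intensity was at least 13.2 times the local background. The software estimated an error of at most 10.2% of each intensity, or 0.20 to 0.21 on the log2 scale for a difference. This share was nearly the same for every member probe, whether dim or bright. It was not shown to be noise measured on these arrays, and it serves below only as a nearly fixed yardstick. The spread between spots was measured on the arrays. For probes of similar signal printed in 10 spots, the SD of the log2 difference between spots had a median of 0.045 to 0.072 depending on signal (32 to 78 probes). Neither error covers the spread between cultures. Binding strength differs from probe to probe, so the intensity of 1 probe is not set against that of another.

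**Figure D1:**
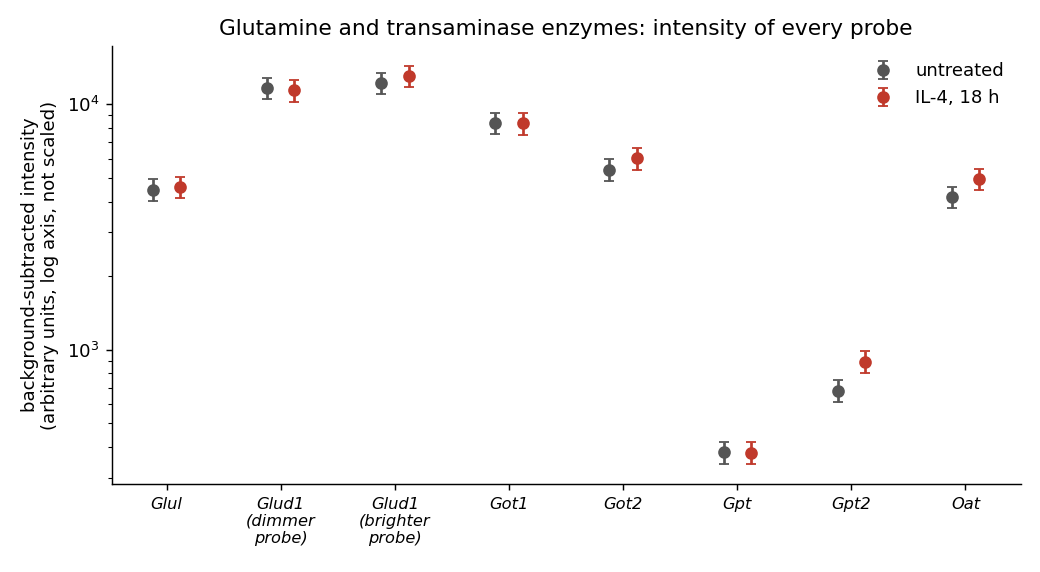
Background-subtracted intensity of the 8 member probes (arbitrary units, log axis, not scaled between arrays) in untreated (grey) and IL-4-treated (red) BMDMs, 1 array each, with error bars for the error estimated by the scanner software. The bars of both arrays overlap for every probe but that of Gpt2, which rose from 680.4 to 893.7.

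Glul, which encodes glutamine synthetase, had an intensity of 4489 in untreated and 4602 in IL-4-treated BMDMs. Its log2 difference after scaling was -0.06, beside a median spot SD of 0.050, and 41.7% of genes measured on both arrays lay below it. The values for glutamine synthetase thus differed by less than the software error of 0.20.

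Glud1, which encodes glutamate dehydrogenase, was read by 2 probes. The brighter gave 12233 in untreated and 13021 in IL-4-treated BMDMs, a log2 difference of -0.01. The dimmer gave 11614 and 11390, a log2 difference of -0.13. The probes thus differed by 0.12, which is more than the spot SD of either (0.045 and 0.046) and less than the software error. Glud1 was the only member for which a second probe could be set beside the first.

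The aspartate aminotransferases make aspartate from oxaloacetate, in the cytosol (Got1) and in mitochondria (Got2), and both serve the malate-aspartate shuttle. Got1 had an intensity of 8382 in untreated and 8352 in IL-4-treated BMDMs, a log2 difference of -0.10. Got2 had 5414 and 6011, a log2 difference of 0.05. Got2 minus Got1 was 0.16 in log2 difference, above the spot SD of 0.069 for that gap and below the software error of 0.29. The remaining shuttle genes are the malate dehydrogenases Mdh1 and Mdh2 and the carriers Slc25a11, Slc25a12 and Slc25a13. All 5 were measured on both arrays, and none was at least 1.5-fold changed. Their median log2 difference was 0.13, with the lowest value for Mdh1 (-0.03) and the highest for Slc25a13 (0.46), which encodes the aspartate-glutamate carrier citrin.

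The alanine aminotransferases exchange pyruvate and alanine, in the cytosol (Gpt) and in mitochondria (Gpt2). Gpt had an intensity of 381.2 in untreated and 380.4 in IL-4-treated BMDMs, which gave a log2 difference of -0.10 after scaling. Gpt2 had 680.4 and 893.7, a log2 difference of 0.29, or 1.23-fold higher after IL-4. Gpt2 was the only member whose difference exceeded the software error of 0.20, and it was also above its median spot SD of 0.061. Of genes measured on both arrays, 87.6% lay below it. Gpt2 minus Gpt was 0.40, which exceeded both the spot SD (0.094) and the software error (0.29) of that gap. With 1 array per condition, neither this gap nor the value of Gpt2 can be tested.

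Oat encodes ornithine aminotransferase, a mitochondrial enzyme that links ornithine, glutamate and proline. It had an intensity of 4198 in untreated and 4944 in IL-4-treated BMDMs, a log2 difference of 0.14, or 9.93% higher. This is above its spot SD of 0.050 and below its software error of 0.20, and 74.1% of genes measured on both arrays lay below it. Arg1, which encodes the arginase that makes ornithine and is a marker of the M2 state, went from 84.9 to 19688 on the same arrays, 216-fold higher. The genes that carry ornithine and glutamate on to proline or back were read beside Oat, with the arginases and with Odc1 and Otc, whose enzymes use ornithine. Of 9 with a matched probe, 8 were measured on both arrays, and their median log2 difference was 0.30. Apart from Arg1 none was at least 1.5-fold changed. Aldh18a1, which starts proline synthesis from glutamate, had a log2 difference of 0.19, Pycrl, which encodes a reductase of proline synthesis, had 0.37, and Prodh, which degrades proline, had -0.16. The 2 Pycrl probes ran from 0.02 to 0.37. Of the 3 Odc1 probes, which read the first enzyme of polyamine synthesis, the lowest was -0.04 and the highest 0.29.

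**Figure D2:**
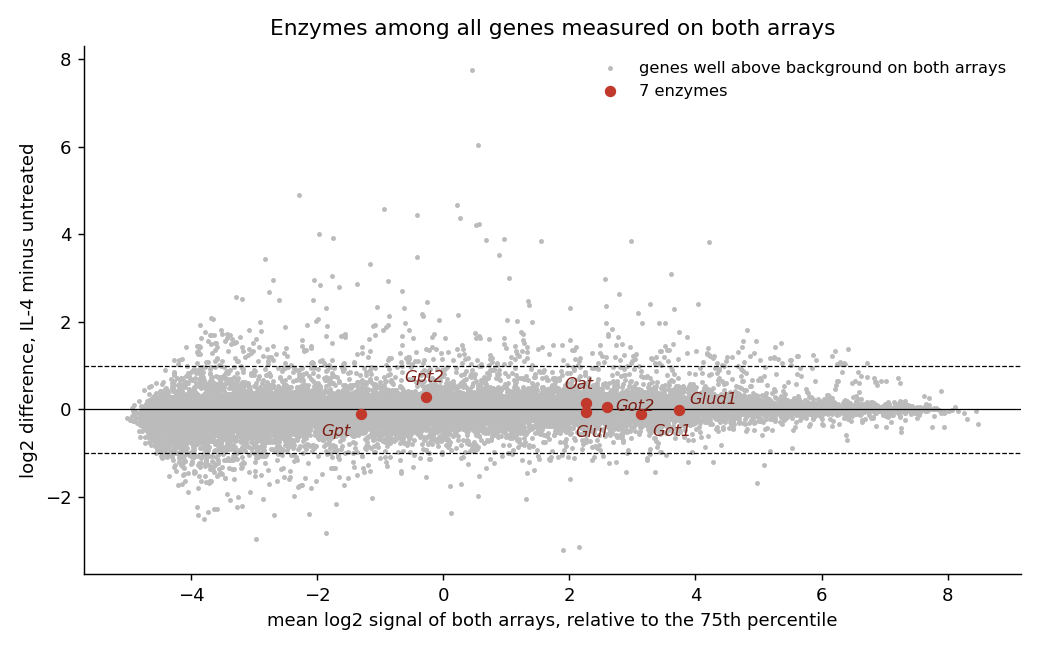
Log2 difference (IL-4 minus untreated) against mean log2 signal relative to the 75th percentile, for the 17242 genes measured on both arrays (grey) and the 7 enzymes (red, 1 probe per gene); dashed lines mark 2-fold. The enzymes lie between -0.10 and 0.29, well inside the lines, while Arg1 is the topmost grey point at 7.76.

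The direction of small differences depends on how the arrays are scaled, since scaling moves all genes together. The median over all genes shifted by 0.21 with median scaling, and by 0.32 with scaling on 7 bright spike-in control probes, and with either of them all 7 members had a positive difference. Members were therefore also read relative to the median of all genes, which cancels any shift common to all genes. Of the alternatives, 4 scalings leave this quantity unchanged by construction, and the authors' table and the outlier spots moved it by at most 4.0e-06. The ranges that follow cover the scaling used here and the 5 remaining alternatives, which were loess, quantile normalization, normexp, the median over probes and signal without detrending. Gpt2 lay 0.28 to 0.31 above that median and Oat 0.09 to 0.20 above it. Got2 lay 0.0038 to 0.13 above it. Got1 lay below it in these 6, between -0.16 and -0.04, as did Gpt, between -0.09 and -0.05. Glul lay between -0.12 and 0.0018 and Glud1 between -0.08 and 0.0054, so neither kept a side. With spike-in scaling Gpt2 had a log2 difference of 0.61, the single setting in which a member passed 1.5-fold.

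**Figure D3:**
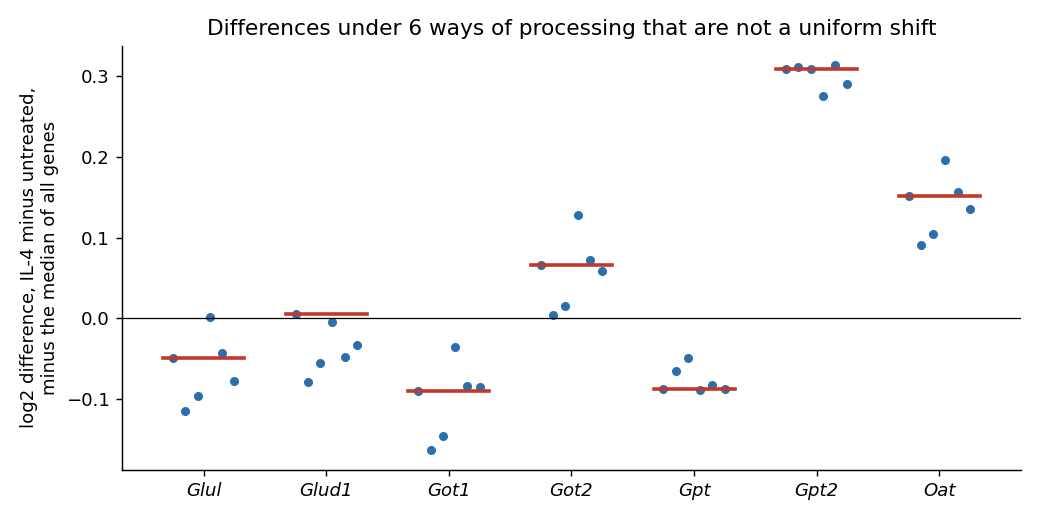
Log2 difference of each enzyme (IL-4 minus untreated) minus the median of all genes measured on both arrays, with 1 blue point for each of 6 ways of processing that do more than shift all genes alike and a red line at the 75th percentile scaling used in the text. In these 6, Gpt2, Oat and Got2 lie above 0 (Got2 down to 0.0038), Got1 and Gpt lie below it, and Glul and Glud1 have 1 point above it each.

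Other genes of these pathways were read from lists of enzymes and carriers. Of 71 related genes with a matched probe, 57 were measured on both arrays and the rest on neither. Of these 57, 2 rose past 2-fold (3 with median, quantile, loess, no or spike-in scaling) and 0 fell past it, and at 1.5-fold there were 3 higher and 1 lower. Their median log2 difference was 0.05, beside -0.01 for the members and for all genes measured on both arrays. The largest differences upward were those of Arg1, of Pcx, which encodes the pyruvate carboxylase that makes oxaloacetate and went from 486.9 to 1329 (2.55-fold), and of Abat, which encodes GABA transaminase and went from 106.7 to 220.3 (1.93-fold). The largest downward were those of Gfpt2 (162.5 to 114.0, 1.53-fold lower), an enzyme that uses glutamine to make glucosamine 6-phosphate, of Idh1 (740.8 to 601.7, a log2 difference of -0.40), the cytosolic isocitrate dehydrogenase that makes α-ketoglutarate, and of Ctps2 (4943 to 4024, a log2 difference of -0.40), a CTP synthase that takes nitrogen from glutamine and whose dimmer probe gave -0.72.

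Among enzymes that use glutamine or glutamate, 15 of 18 were measured on both arrays, with a median of 0.05. Asns, which makes asparagine with nitrogen from glutamine, had a log2 difference of 0.24, and Gfpt1 had 0.05. The GABA transaminase gene Abat was read in this list. Of 10 further transaminases, 6 were measured on both arrays, with a median of -0.05 and no gene at least 1.5-fold changed at its brightest probe. Bcat1, the cytosolic branched-chain aminotransferase, had -0.18 at its brightest probe, and its 3 probes ran from -0.18 to 0.07. Psat1, the aminotransferase of serine synthesis, had 0.12 and 0.60 at its 2 probes.

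Of 17 glutamine and glutamate carriers, 11 were measured on both arrays, with a median of 0.14 and none at least 1.5-fold changed. Slc1a5, a main route for glutamine into cells, went from 2569 to 3709, a log2 difference of 0.43, and its 2 probes gave 0.43 and 0.47. Slc7a5, which encodes the light chain of a transporter that exchanges glutamine for other amino acids, had 0.39 at the brighter and 0.56 at the dimmer of its 2 probes. All 12 genes for the carbon partners of the transaminases, which handle pyruvate, isocitrate and α-ketoglutarate, were measured on both arrays with a median of 0.04, and Pcx was the 1 that was at least 1.5-fold changed.

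**Figure D4:**
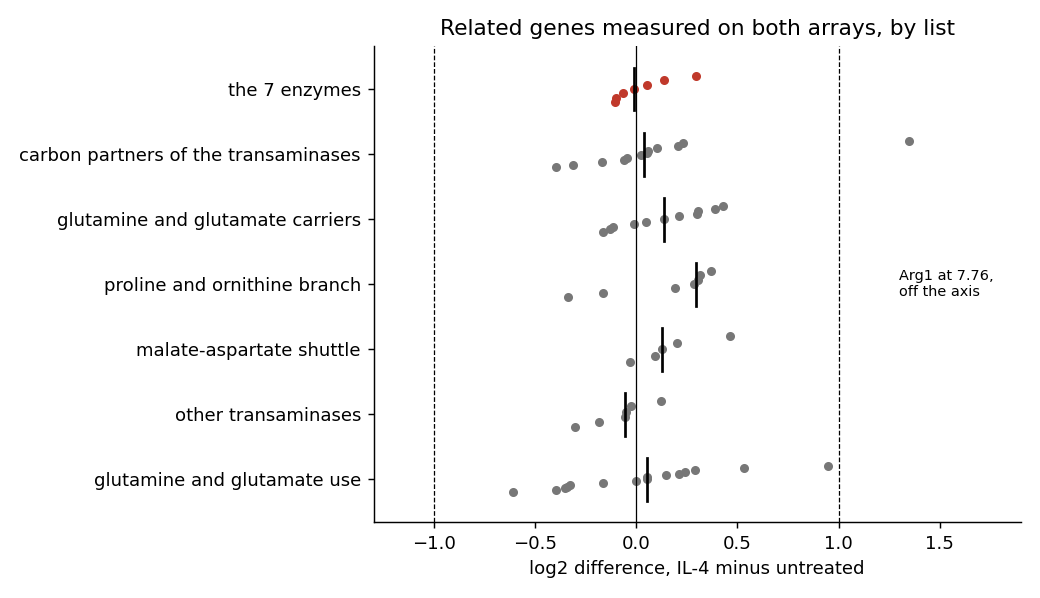
Log2 difference (IL-4 minus untreated) of the 57 related genes (grey, by list) and the 7 enzymes (red), 1 point per gene, with a black bar at the median of each row and dashed lines at 2-fold. Pcx at 1.35 is the only grey point beyond the right line, and Arg1 at 7.76 is written in because it is off the axis.

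For each member, the related gene with the nearest log2 difference was looked up, which is a likeness over 2 arrays only. These were Idh2 for Glul, Slc7a11 for Glud1, Slc7a8 for both Got1 and Gpt, Gclc for Got2, Pfas for Gpt2 and Slc3a2 for Oat, with gaps of 9.4e-06 to 0.015.

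The arrays were checked against markers. Apart from Arg1, the M2 genes Chil3 and Mrc1 were 14.2-fold and 5.33-fold higher after IL-4, and Retnla, whose untreated signal was not well above background, was higher by at least 595-fold. Of 8 macrophage markers, 7 had a matched probe and all 7 were well above background on both arrays, with a median log2 difference of -0.71. Csf1r was at 0.09 and Adgre1 at 0.17, and the other 5 were at least 1.5-fold lower after IL-4 at their brightest probe. Itgam was at -0.71, Lyz2 at -0.70, Mertk at -1.14, Fcgr1 at -1.23 and Cd14 at -1.42. The 3 Itgam probes ran from -0.71 to -0.24, and the 3 Csf1r probes from -0.11 to 0.09. All 4 fibroblast markers were well above background on both arrays as well, with log2 differences of -0.34 for Col1a1 (58153 to 49150), -0.14 for Dcn, -0.03 for Col3a1 and 0.51 for Pdgfra. The neutrophil markers Elane, Mpo and S100a8 were measured on both arrays, at -0.23, 0.30 and -0.17. Of 4 T cell markers, Cd3e and Cd4 were measured on both arrays and Cd3d and Cd8a on neither, and of 3 dendritic cell markers Zbtb46 was measured on both (-0.52) and Flt3 and Xcr1 on neither. No B cell or hepatocyte marker cleared the background flag on either array. The part of other cells in the values of the 7 enzymes was not tested, and in RNA from whole cultures, fewer cells of a type and less RNA per cell cannot be told apart.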

How the data were processed

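Total RNA from BMDMs was labelled with Cy3 and hybridised to Agilent arrays. The authors deposited scanner files from Feature Extraction 10.10.1.1, whose spot intensity was corrected for background and spatial trend within the array, plus a table of log2 values whose scaling and centring are not given in the sources used here. That table and the intensity gave log2 differences within 0.01 of each other, after an offset of 0.000564, for all 8 member probes. The 0 and 1 values of other columns are flags that the authors' software set, used as deposited. The array design is annotated on mm9. Probes were named by RefSeq accession through a GRCm38.p6 table, which matched 27234 of 39429 probes, and promoters were matched by symbol for 6 of 7 members.

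Groups were taken from the labels. Spots marked as outliers were left out, log2 intensity was averaged over the spots of a probe, each array was lowered by its 75th percentile, and a gene was read from its brightest probe. For a probe dim on 1 array the fold is a bound, taken against its own dim signal or the lowest one flagged as above background, whichever is higher. With 1 array per condition no test was run and the precision is limited by the number of arrays. Alternatives covered scaling, background, filters on dim probes, cutoffs, flagged spots and rules for several probes, including normexp with an offset of 50. The members, lists and settings were chosen with earlier results of these data known. Named genes are the members, the 3 largest differences each way among related genes, related genes listed by name (Asns, Gfpt1, Arg1, Psat1, Bcat1 and Slc1a5 among them; not all are reported here), the nearest gene to each member and markers; Idh1, Ctps2 and others follow from that rule, while Slc7a5, Mdh1, Slc25a13 and the proline genes were picked after their values were seen. The software was limma 3.58.1 under R 4.3.3, with pandas 2.3.3 and numpy 2.4.6 under Python 3.11.15.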

Additional observations from a re-analysis of the deposited data

How the results depend on the processing

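No paired analysis was possible because there was only 1 array for untreated and 1 for IL-4-treated BMDMs. A value counts as moved here when it changed by more than its spot SD. All 7 members stayed under 2-fold in every setting run. Processing on the signal without detrending was chosen after seeing the data. In the order Glul, Glud1, Got1, Got2, Gpt, Gpt2 and Oat, the log2 differences were 0.15, 0.20, 0.11, 0.27, 0.11, 0.51 and 0.35 with median scaling, 0.036, 0.090, -0.0053, 0.15, -0.0031, 0.39 and 0.24 with no scaling, and 0.26, 0.31, 0.22, 0.37, 0.22, 0.61 and 0.46 with spike-in scaling, each of which shifts all genes alike. In the order Glul, Glud1, Got1, Got2 and Oat they were -0.12, -0.064, -0.16, -0.0035 and 0.082 with the 75th percentile over probes above background on both arrays, and -0.13, -0.093, -0.18, -0.010 and 0.077 with quantile normalization. Gpt2 was 0.23 with normexp, Glud1 was -0.069 as the median over its probes, and Glul and Glud1 were -0.12 and -0.072 without detrending. The median of the related genes moved to 0.27, 0.15 and 0.37 with median, no and spike-in scaling.

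Over all genes, 564 rose and 883 fell past 2-fold. Those split 827 to 564 with median scaling, 803 to 533 with quantile normalization, 693 to 632 with loess and 1011 to 454 with spike-in scaling. The higher genes numbered 295 with normexp, 848 in the authors' table, 1206 at 1.5-fold, 363 when only genes above background on both arrays were kept and 1389 with no filter on dim probes. The lower genes numbered 266 with normexp, 1645 in the authors' table, 2164 at 1.5-fold, 270 when kept on both arrays and 4075 with no filter. The authors' table was counted without the bound for probes dim on 1 array, so its counts are not like for like with 564 and 883. Related genes called higher went from 2 to 3 with median, quantile, loess, no and spike-in scaling, and those called lower from 0 to 1 at 1.5-fold and to 4 with no filter. The cutoff, the filters and the missing bound in the authors' table change counts by construction. So do median, no and spike-in scaling, which shift all genes alike. For the rest the cause was not tested.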
